A study of Mus musculus with 14 samples.

Results

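The genes described here encode proteins of the mitochondrial ribosome. They were taken by symbol, as every gene named Mrpl or Mrps followed by a number and measured by a probe set that carries 1 gene symbol, which gave 75 genes of 19155, 46 with large subunit names and 29 with small subunit names. One more probe set, shared by Mrpl53 and Ccdc142, was left out because it names both genes. Of the members only Mrpl47 had more than 1 probe set, and the one with the higher mean was used. Hematopoietic progenitors were sorted from young and old mice, and their RNA was hybridized to 14 Affymetrix Mouse Gene ST arrays. All cells came from the bone marrow of wild-type C57BL/6 mice with no engineered allele or treatment named, and each array carried linearly amplified RNA of 20000 sorted cells. MPP4, the lymphoid-biased multipotent progenitors, were sorted as Flk2+ cells of the Lin-/cKit+/Sca-1+ compartment. MPP3, the myeloid-biased ones, were the cells of that compartment with CD48 but neither Flk2 nor CD150 according to the series record, whereas the study's methods describe MPP3 as CD150+. The groups were old MPP4 (3 arrays), young MPP4 (5), old MPP3 (3) and young MPP3 (3), with old mice 24 months and young mice 8 to 10 weeks of age. The record and the study's methods call the replicates of a population biological, but the labels do not tie arrays to separate mice. The p-values set a difference against the spread between arrays and take the arrays as independent, which could not be checked.

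Mitochondria keep a small genome that encodes core subunits of the respiratory chain, and a ribosome of their own translates it. The RNAs of that ribosome are made in the organelle, whereas its proteins are encoded in the nucleus, translated in the cytosol and imported. Some of these proteins have a counterpart in bacterial ribosomes and others are found in mitochondria only. Not every name follows the position of the protein: the products of Mrps18a and Mrps30 sit in the large subunit, and that of Mrps36 is a component of the 2-oxoglutarate dehydrogenase complex. The members were therefore also grouped by class. The large subunit proteins were 29 conserved and 19 mitochondria-specific ones, and the small subunit proteins 15 conserved and 11 mitochondria-specific ones. Mrps36 was in none of these. The classes follow the gene lists used here, which place Mrps28 among the mitochondria-specific small subunit proteins, and no class mean was taken without it.

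The RefSeq promoter table (GRCm38.p6) held 66 of the 75 members, each with the 250 bases before and 50 bases after its start site. Stretches of 6 members are printed here, from 150 bases before the start to 30 after it, because their values carry the comparisons that follow or because they show how closely a member can lie to its neighbour. Capitals mark a match to a searched motif.
Mrps12, chr7:28741792-28741971, minus strand: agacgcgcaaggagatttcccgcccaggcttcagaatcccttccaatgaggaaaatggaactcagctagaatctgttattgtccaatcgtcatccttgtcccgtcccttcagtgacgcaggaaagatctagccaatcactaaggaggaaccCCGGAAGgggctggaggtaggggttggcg
Mrpl28, chr17:26123353-26123532, plus strand: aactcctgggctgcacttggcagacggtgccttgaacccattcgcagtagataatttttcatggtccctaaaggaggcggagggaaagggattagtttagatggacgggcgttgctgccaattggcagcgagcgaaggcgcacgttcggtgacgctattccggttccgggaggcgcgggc
Mrpl9, chr3:94443186-94443365, plus strand: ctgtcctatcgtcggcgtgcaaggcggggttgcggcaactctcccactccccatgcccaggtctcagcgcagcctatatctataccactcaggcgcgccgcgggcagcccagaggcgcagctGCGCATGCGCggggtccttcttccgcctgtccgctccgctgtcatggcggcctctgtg
Mrps23, chr11:88204238-88204417, plus strand: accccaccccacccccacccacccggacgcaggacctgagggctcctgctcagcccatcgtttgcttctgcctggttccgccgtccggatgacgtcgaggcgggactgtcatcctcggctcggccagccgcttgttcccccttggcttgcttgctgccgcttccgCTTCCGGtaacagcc
Mrps27, chr13:99344636-99344815, plus strand: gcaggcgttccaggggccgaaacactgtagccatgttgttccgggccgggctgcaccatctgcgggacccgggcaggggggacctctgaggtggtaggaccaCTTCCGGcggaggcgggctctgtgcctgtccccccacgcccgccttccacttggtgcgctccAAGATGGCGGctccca
Mrpl46, chr7:78783060-78783239, minus strand: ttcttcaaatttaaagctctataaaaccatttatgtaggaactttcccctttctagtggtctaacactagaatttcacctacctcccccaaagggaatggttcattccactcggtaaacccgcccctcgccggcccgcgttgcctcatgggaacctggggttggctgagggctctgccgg

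Of these, Mrps12 held the ETS motif CCGGAAG, which GABP binds, just after its start, and Mrps23 and Mrps27 held the same letters on the opposite strand. The RefSeq gene record of Mrps23 begins at 88194106, upstream of the printed stretch, which begins at 88204238. The match in Mrps23 therefore refers to a start site inside the annotated gene. Mrpl9 held the palindromic NRF1 motif, and Mrps27 also held the YY1 motif. Mrpl28 and Mrpl46 held no match in the printed stretch to these motifs or to the E-box CACGTG, which MYC binds with MAX. NRF1 and GABP are known as activators of nuclear genes for mitochondrial proteins. Over the full windows and on both strands, the NRF1 motif was found in 13 of 66 members (19.7%), against 7.17% of 17491 protein-coding genes. The ETS motif was found in 23 members (34.8%), against 12.9% of protein-coding genes. The YY1 motif occurred in 5 members (7.58%, against 1.41%) and the E-box in 5 (7.58%, against 8.91%). A match describes the letters and not binding.

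A neighbour starting close by in the opposite direction was also frequent. For 23 of the 66 members (34.8%) a protein-coding gene started divergently within 1000 bases, against 8.48% of all protein-coding genes. Mrps11 and Mrpl46 are such a pair among the members themselves, with 42 bases between their starts on chromosome 7. Mrps12 lies 147 bases from Sars2, which encodes the mitochondrial seryl-tRNA synthetase, and Mrpl43 lies 116 bases from Twnk, the gene of the mitochondrial DNA helicase. Ndufb5, a subunit of respiratory complex I, starts 308 bases from Mrpl47, and Fau, which encodes a cytosolic ribosomal protein, 192 bases from Mrpl49.

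**Figure D1:**
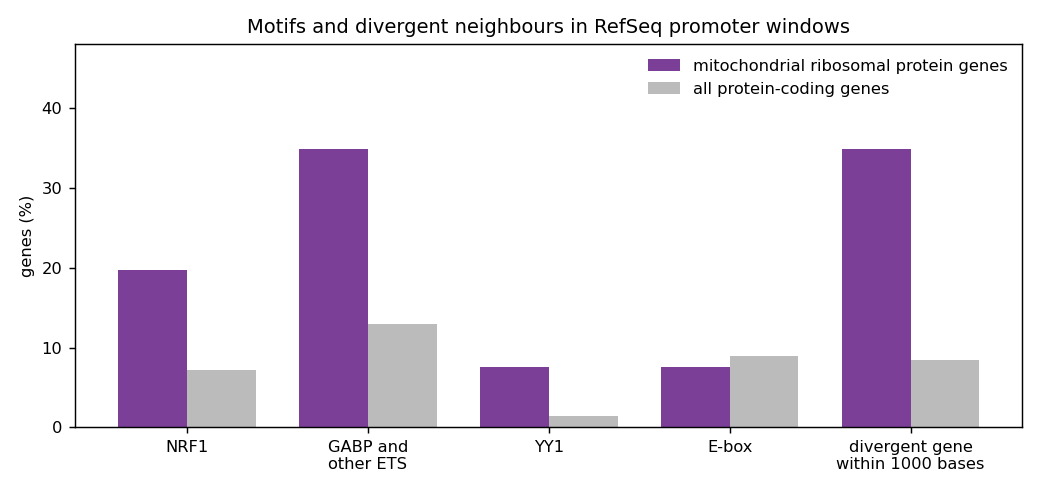
Share of genes (percent, y axis) whose RefSeq promoter window holds each motif on either strand, or which have a divergent protein-coding gene within 1000 bases; purple bars are the 66 mitochondrial ribosomal protein genes with a window and grey bars all 17491 protein-coding genes. The purple bar is the higher one for NRF1, ETS, YY1 and the divergent neighbour, and the lower one for the E-box.

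All values are normalized values on a rank scale. Each is the negative natural log of how large a part of the array's ranked probe sets stood as high or higher, so that a difference between groups is one in rank and not a fold. Array medians lay between 0.662 and 0.675 and correlations between arrays between 0.948 and 0.994. By their dimmest probe sets the arrays fell into 2 sets, which the labels do not name. Set 2 held young MPP4 replicates 3 to 5 with young MPP3 replicates 2 and 3, and set 1 held all others, the 6 old arrays included. The young arrays also belong to an earlier deposit according to the record, so series and age cannot be told apart. On 4 young arrays Xist, the RNA of the inactive X chromosome, was above 1, and on no old array. Flt3, the gene of the sorting marker Flk2, averaged 3.40 in old MPP4 and 1.79 in old MPP3, and 3.12 in young MPP4 and 2.13 in young MPP3. CD48 was required of MPP3, whereas the MPP4 gate does not name it. Its gene Cd48 averaged 2.60 in old MPP4 and 2.40 in old MPP3, and 2.30 in young MPP4 and 2.62 in young MPP3. Slamf1, the gene of CD150, was near the bottom of the scale everywhere, at 0.115 in old MPP4 and 0.190 in old MPP3, and 0.122 in young MPP4 and 0.140 in young MPP3. Mature neutrophil genes averaged 0.354 to 0.515 per array in old MPP4 and 0.330 to 0.498 in young MPP4, and 0.886 to 1.31 in old MPP3 and 0.565 to 0.853 in young MPP3. In MPP3, 6 of them had higher and 2 lower means in old cells. All 7 measured B lineage genes had lower means in young MPP4 than in young MPP3, and in old cells 6 were lower and 1 higher. The 4 measured erythroid genes were also all lower in young MPP4, with Car1 at 0.827 in young MPP4 and 2.48 in young MPP3. All 8 measured genes of the G2 and M phases had higher means in old cells of both populations, with 2.16 to 2.33 per array in old MPP4 and 1.85 to 2.16 in young MPP4, and 2.04 to 2.38 in old MPP3 and 1.97 to 2.06 in young MPP3. The part of these differences in the results was not tested. In such bulk samples, fewer cells that express a gene and less RNA per cell cannot be told apart.

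The mitochondrial ribosomal protein genes as a whole stood at nearly the same level in all 4 groups. Their mean over 75 genes was 1.59 ± 0.0534 (SD, n = 3) in old MPP4 and 1.60 ± 0.0438 (SD, n = 5) in young MPP4. In MPP3 it was 1.60 ± 0.0963 (SD, n = 3) in old and 1.62 ± 0.0590 (SD, n = 3) in young mice. The groups overlapped in both populations. The means per array were 1.56, 1.56 and 1.65 in old MPP4 and 1.53, 1.60, 1.62, 1.63 and 1.63 in young MPP4. They were 1.55, 1.71 and 1.53 in old MPP3 and 1.56, 1.66 and 1.66 in young MPP3. Single arrays stood apart for most members at once. Old MPP3 replicate 2 was above the mean of the other old MPP3 arrays for 60 of 75 members, and old MPP4 replicate 3 above the others of its group for 55. Young MPP4 replicate 1 was above the others of its group for 27 members and young MPP3 replicate 1 for 24. Old MPP4 replicates 1 and 2 were above the others for 26 members each, old MPP3 replicate 1 for 25 and old MPP3 replicate 3 for 23. In a group of 3, a high array by itself puts the others below the mean of the rest.

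**Figure D2:**
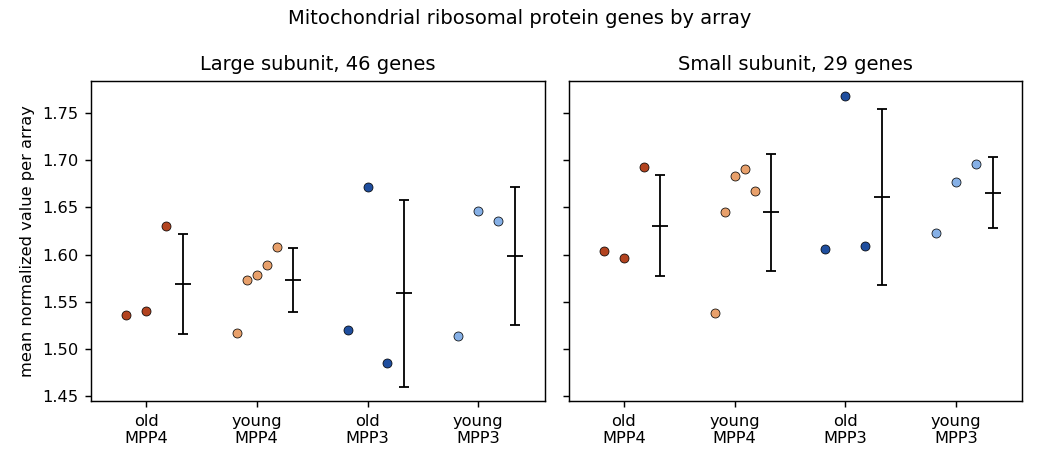
Mean normalized value of the 46 large subunit and the 29 small subunit names on each array (points) by group (x axis), with horizontal marks for group means and bars for 1 SD. Old MPP3 replicate 2 is the highest point of both panels, and the points of old and young cells overlap in both populations.

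The large subunit names averaged 1.57 ± 0.0532 (SD, n = 3) in old MPP4 and 1.57 ± 0.0340 (SD, n = 5) in young MPP4, and 1.56 ± 0.0990 (SD, n = 3) in old MPP3 and 1.60 ± 0.0734 (SD, n = 3) in young MPP3. The small subunit names averaged 1.63 ± 0.0538 in old MPP4 and 1.64 ± 0.0621 in young MPP4, and 1.66 ± 0.0932 in old MPP3 and 1.67 ± 0.0378 in young MPP3, with the same numbers of arrays. Conserved small subunit proteins had 1.74 ± 0.0666 in old MPP4 and 1.81 ± 0.0464 in young MPP4, and 1.78 ± 0.0997 in old MPP3 and 1.85 ± 0.0143 in young MPP3. Mitochondria-specific small subunit proteins had 1.64 ± 0.0405 in old MPP4 and 1.58 ± 0.0883 in young MPP4, and 1.66 ± 0.0820 in old MPP3 and 1.59 ± 0.0343 in young MPP3. Leaving out single arrays changed the size of the age differences of both small subunit classes but turned none of them. Leaving out Mrps23, which belongs to the mitochondria-specific class only, did not turn the age differences of that class. These class differences were not tested. Of the mitochondria-specific small subunit proteins, 8 had a higher and 3 a lower mean in old MPP3, with a median of 0.0171. Their mean difference in MPP3 was 0.0652, and it was 0.0178 without Mrps23 and 0.0179 without old MPP3 replicate 2. In MPP4 it was 0.0581, and 0.0202 without young MPP4 replicate 1. Of the conserved small subunit proteins, 6 had a higher and 9 a lower mean in old MPP3, with a median of -0.0416. Their mean difference in MPP3 was -0.0633, and it ran from -0.121 without old MPP3 replicate 2 to -0.0309 without old MPP3 replicate 1. In MPP4 it was -0.0776, and it ran from -0.115 without old MPP4 replicate 3 to -0.0528 without old MPP4 replicate 2.

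The median SD within groups was 0.146 over members and 0.0887 over all genes, but 0.149 over the 2669 genes that lie within the middle 50% of the members' levels. Mrpl42 had the widest spread of the members at 0.292 and Mrpl38 the narrowest at 0.0648. Mean values ran from 0.453 for Mrps27 to 3.30 for Mrps18c, which corresponds to 63.6% and 3.70% of ranked probe sets at or above them. Among large subunit names the lowest means were those of Mrpl22, Mrpl38 and Mrpl43 and the highest those of Mrpl24, Mrpl39 and Mrpl42. Among small subunit names they were Mrps27, Mrps36 and Mrps30 at the low end and Mrps21, Mrps33 and Mrps18c at the high end. Levels of different probe sets depend on their probes and were not tested between genes. For Mrpl27, Mrpl41, Mrps33 and Mrps36 the number of the probe set lies among those of genes on another chromosome than the gene itself, and their values carry this doubt about the annotation.

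**Figure D3:**
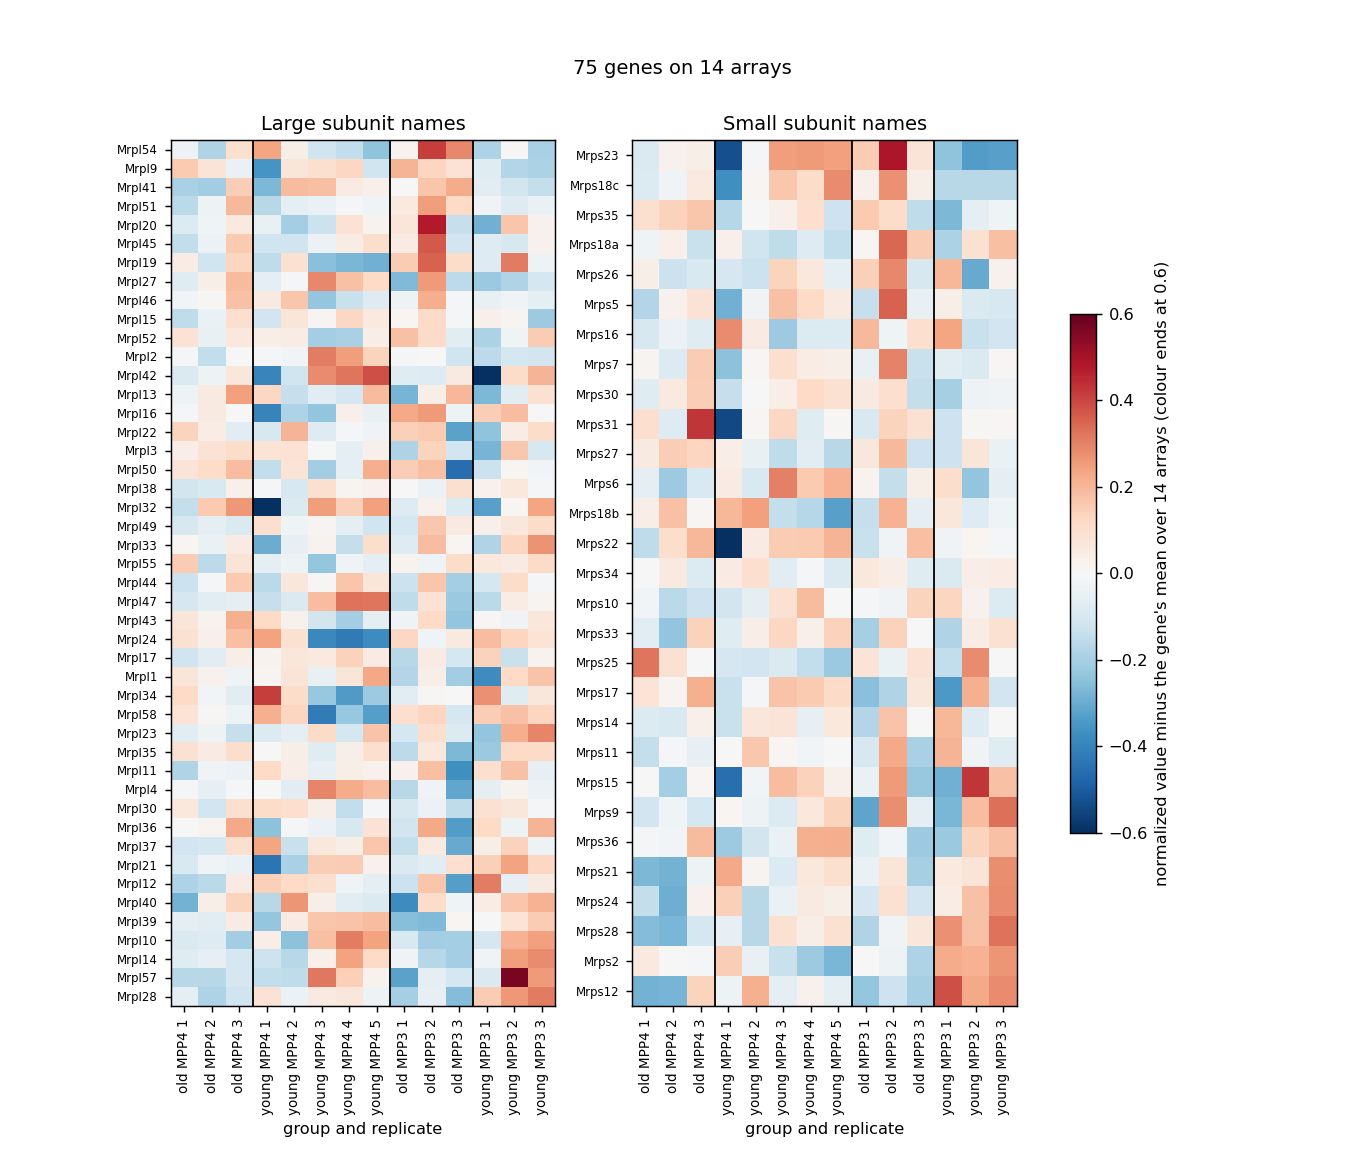
Normalized value of each of the 75 members (rows) on each of the 14 arrays (columns, by group and replicate) minus that gene's mean over all arrays; colour ends at 0.6 in either direction and rows run by the old minus young difference in MPP3. Mrps12, Mrps2, Mrpl28 and Mrps28 are red on all 3 young MPP3 arrays, and old MPP3 replicate 2 is red for most genes.

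Between old and young MPP3, 34 members had a higher and 41 a lower mean in old cells, with a median difference of -0.0195, against 0.000183 over all genes. No member passed limma's adjusted threshold of 0.05 (smallest adjusted p = 0.471), and neither did any of the 19155 genes, by limma or by a SAM-type statistic. The study's methods used SAM scores to choose genes for a pathway analysis, which was not repeated here. At an unadjusted p under 0.05 there were 6 members higher and 9 lower, or 20% of 75, against 8.19% of all genes (3.44% higher and 4.75% lower). The groups did not overlap for 12 members (16%; 6 higher and 6 lower), against 14.2% of all genes (6.14% higher and 8.04% lower). The median difference was -0.0484 over large and 0.0105 over small subunit names. Leaving out old MPP3 replicate 2 put the median of all members at -0.0789, and leaving out old MPP3 replicate 1 put it at 0.00211.

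The widest gap on the lower side was that of Mrps12, whose bacterial counterpart S12 lies at the decoding site of the small subunit. It stood at 2.03, 2.14 and 2.07 in old MPP3 and at 2.65, 2.49 and 2.55 in young MPP3. Every old array was below every young one, and the difference was -0.485 ± 0.0539 (SE; limma adjusted p = 0.471). Sars2, its divergent neighbour, stood at 0.815, 1.04 and 0.938 in old MPP3 and at 0.827, 0.867 and 0.835 in young MPP3, with overlap and a difference of 0.0886 ± 0.0616 (SE).

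Mrpl28, a conserved protein of the large subunit, was at 1.11, 1.26 and 1.05 in old MPP3 and at 1.47, 1.57 and 1.62 in young MPP3. The difference was -0.413 ± 0.0712 (SE; limma adjusted p = 0.471). It passed in a single fit of all 4 groups (limma adjusted p = 0.0478), in which 9 of 19155 genes passed and no other member did. Mrps2, a conserved small subunit protein, was at 1.75, 1.72 and 1.57 in old MPP3 and at 1.98, 1.96 and 2.02 in young MPP3. Mrps28, another protein of the small subunit, was at 1.70, 1.86 and 1.95 in old MPP3 and at 2.16, 2.06 and 2.21 in young MPP3. The groups did not overlap for either, and the differences were -0.307 ± 0.0561 for Mrps2 and -0.303 ± 0.0770 for Mrps28 (SE). Mrpl21 and Mrpl30, both conserved large subunit proteins, were the other members below the young range on every old array, by -0.186 ± 0.0641 and -0.143 ± 0.0455 (SE).

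On the higher side, Mrps23, a mitochondria-specific small subunit protein, was at 1.37, 1.70 and 1.29 in old MPP3 and at 0.970, 0.876 and 0.887 in young MPP3. The difference of 0.540 ± 0.114 (SE; limma adjusted p = 0.482) was the widest of the members in this comparison, and without old MPP3 replicate 2 it was 0.416. Mrpl9, a conserved protein of the large subunit, was at 1.74, 1.66 and 1.62 in old MPP3 and at 1.46, 1.36 and 1.34 in young MPP3. Every old array was above every young one, by 0.285 ± 0.0489 (SE) on average. Mrps18c, a conserved small subunit protein, was at 3.33, 3.57 and 3.33 in old MPP3 and at 3.13 on each array of young MPP3. Its difference was 0.278 ± 0.0728, against 0.141 ± 0.130 for its paralog Mrps18a and 0.0171 ± 0.101 for its paralog Mrps18b (SE). Mrpl41, Mrpl51 and Mrpl54, all mitochondria-specific proteins of the large subunit, completed the members without overlap, with 0.237 ± 0.0646, 0.188 ± 0.0554 and 0.365 ± 0.118 (SE).

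**Figure D4:**
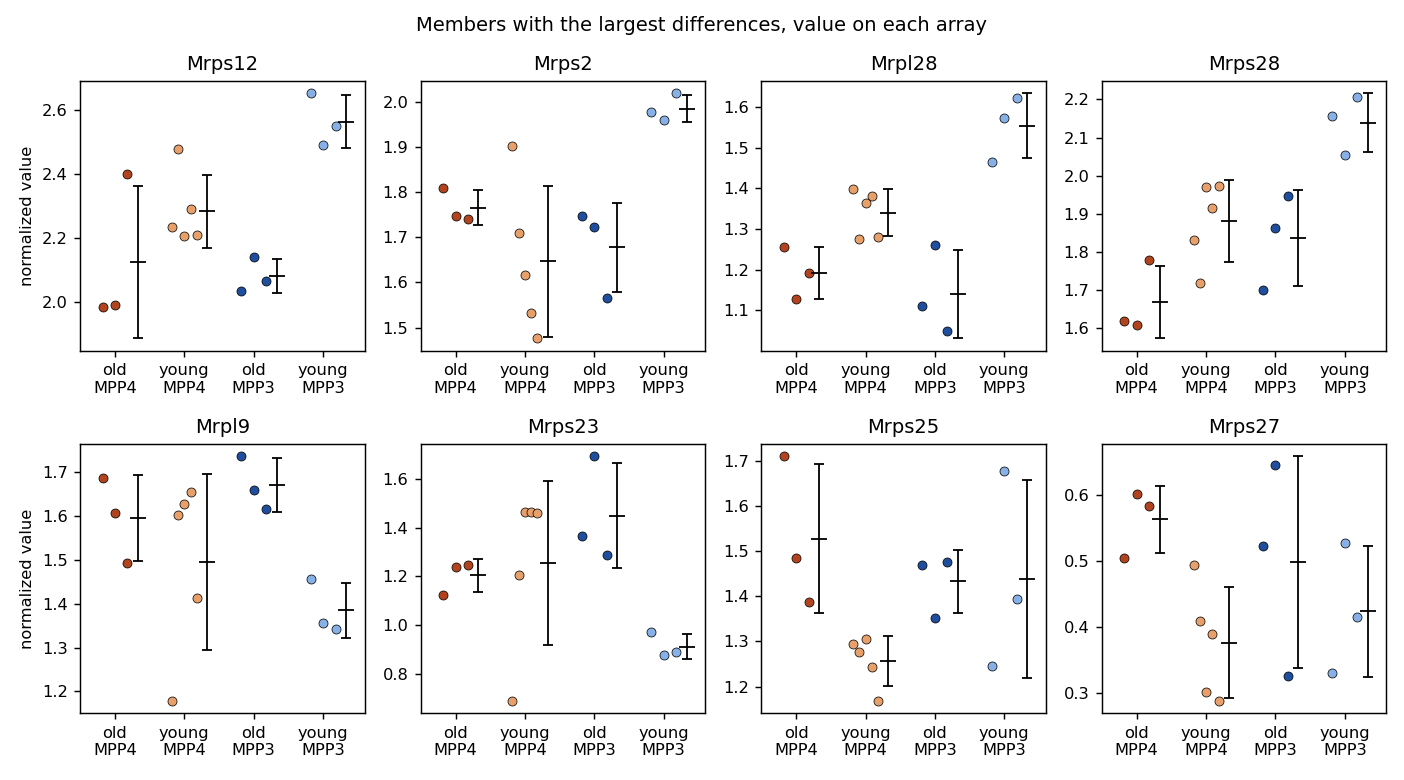
Normalized value (y axis, own scale for each gene and not starting at 0) of 8 members on each array (points) by group, with horizontal marks for group means and bars for 1 SD. In Mrps12, Mrps2, Mrpl28 and Mrps28 the 3 old MPP3 arrays lie below all young MPP3 arrays, in Mrpl9 and Mrps23 above them, and in Mrps25 and Mrps27 the 3 old MPP4 arrays lie above all 5 young MPP4 arrays.

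In MPP4, 35 members were higher and 40 lower in old than in young cells, with a median difference of -0.0263, against -0.000171 over all genes. The median was 0.0231 with the replicate number as a block, a fit that left out young MPP4 replicates 4 and 5. It was 0.00640 without old MPP4 replicate 1 and -0.0594 without young MPP4 replicate 1. No member passed (smallest limma adjusted p = 0.365) and no gene of the 19155 did, while the SAM-type statistic called 21 genes and no member. At an unadjusted p under 0.05 there were 3 members higher and 6 lower, 12% of 75, against 9.77% of all genes (4.50% higher and 5.27% lower). The groups did not overlap for 3 members (4%; 2 higher and 1 lower), against 7.29% of all genes (3.28% higher and 4.01% lower). Of the conserved small subunit proteins 3 had a higher and 12 a lower mean in old MPP4, with a median of -0.0582. Of the mitochondria-specific ones 6 had a higher and 5 a lower mean, with a median of 0.0815.

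Mrps25, a mitochondria-specific small subunit protein, was at 1.71, 1.48 and 1.39 in old MPP4 and at 1.29, 1.28, 1.31, 1.24 and 1.17 in young MPP4, a difference of 0.271 ± 0.0712 (SE; limma adjusted p = 0.365). Mrps27, a pentatricopeptide repeat protein of the small subunit, was at 0.505, 0.601 and 0.583 in old MPP4 and at 0.494, 0.409, 0.303, 0.390 and 0.288 in young MPP4. Its difference was 0.186 ± 0.0513 (SE; limma adjusted p = 0.378), and it passed when arrays were weighted by their quality (limma adjusted p = 0.0480), as did 1.59% of all genes. For both genes the gap to the nearest young array was narrow, and the difference of Mrps25 was 0.179 without old MPP4 replicate 1. Mrps35, also mitochondria-specific, was at 1.62, 1.67 and 1.70 in old MPP4 and at 1.36, 1.53, 1.56, 1.63 and 1.40 in young MPP4, where 1 young array lay within the old range.

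On the lower side, Mrpl28 was at 1.26, 1.13 and 1.19 in old MPP4 and at 1.40, 1.28, 1.36, 1.38 and 1.28 in young MPP4, with a difference of -0.149 ± 0.0419 (SE; limma adjusted p = 0.383). Of the 75 members it was the one whose old and young arrays did not overlap in either population, with lower means in old cells in both. Among all genes 14.2% had no overlap in MPP3 and 7.29% in MPP4. The share of all genes without overlap in both was not computed, so this count is not read as a result about the members. Mrps28 was at 1.62, 1.61 and 1.78 in old MPP4 and at 1.83, 1.72, 1.97, 1.91 and 1.97 in young MPP4, a difference of -0.213 ± 0.0700 (SE) with 1 old array inside the young range. Mrps21, a conserved small subunit protein, differed by -0.259 ± 0.0826 (SE) and was at 2.24, 2.23 and 2.48 in old MPP4 and at 2.74, 2.53, 2.43, 2.57 and 2.61 in young MPP4. Mrpl17 and Mrps6, a conserved protein of each subunit, had differences of -0.115 ± 0.0401 and -0.245 ± 0.0892 (SE), with overlap.

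The age differences in MPP4 and MPP3 share no arrays, but both set old arrays against young arrays of the earlier deposit. Over the 75 members they had the same sign for 48 (64%), against 59.3% of all genes, and were both lower for 27 and both higher for 21. Pearson's r across the members was 0.324, against 0.263 across all genes. Genes are not independent replicates, so these values describe the arrays. Mrps12 differed by -0.160 ± 0.111 (SE) in MPP4, against -0.485 in MPP3, and Mrps2 by 0.119 ± 0.0924 (SE), against -0.307. The test of the difference between the age differences found no member (smallest limma adjusted p = 0.667) and no gene. At an unadjusted p under 0.05 it gave 3 members higher and 2 lower in MPP4 than in MPP3, against 3.44% of all genes higher and 2.83% lower (6.26% together). These were Mrps2 (0.426 ± 0.121), Mrps12 (0.325 ± 0.142) and Mrpl28 (0.265 ± 0.0806) on the positive side and Mrps23 (-0.591 ± 0.245) and Mrpl2 (-0.264 ± 0.110) on the negative side (SE).

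**Figure D5:**
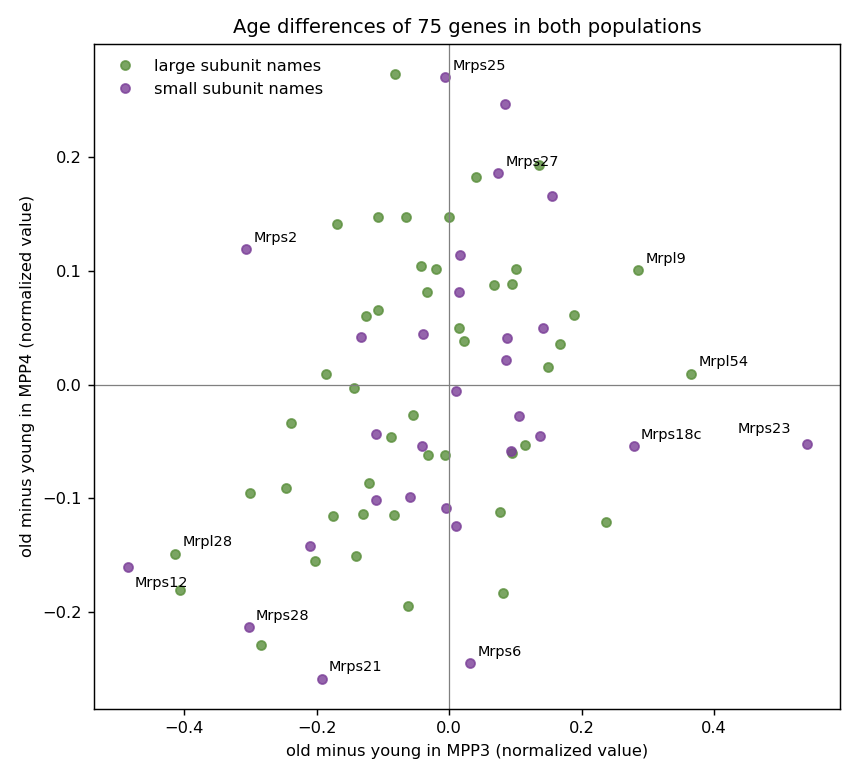
Old minus young difference in MPP4 (y axis) against that in MPP3 (x axis), in normalized value, for each of the 75 members (points; green large and purple small subunit names). Mrps12, Mrpl28 and Mrps28 lie in the lower left, where both differences are negative, and Mrps23 lies at the right edge, close to 0 on the y axis.

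In young mice, 30 members were higher and 45 lower in MPP4 than in MPP3, with a median difference of -0.0155, which ran from -0.0435 without young MPP3 replicate 1 to 0.000303 without young MPP4 replicate 1. Among all genes 25 passed limma's adjusted threshold (0.131%), and none of them was a member (smallest adjusted p = 0.167). At an unadjusted p under 0.05 there were 2 members higher and 6 lower (10.7% of 75), against 11.0% of all genes (5.48% higher and 5.53% lower). The groups did not overlap for 7 members (9.33%; 2 higher and 5 lower), against 7.47% of all genes (3.74% higher and 3.72% lower). Mrpl28, Mrps12, Mrps2 and Mrps28 were lower on every young MPP4 array than on every young MPP3 array. The same 3 young MPP3 arrays entered the comparison of ages, so both comparisons carry their values. Mrps12 was at 2.23, 2.48, 2.21, 2.29 and 2.21 in young MPP4 and differed by -0.281 ± 0.0709 (SE) from young MPP3. Mrps2 was at 1.90, 1.71, 1.62, 1.53 and 1.48 in young MPP4 and differed by -0.338 ± 0.0923 (SE). Mrpl28 differed by -0.213 ± 0.0462, Mrps28 by -0.258 ± 0.0672 and Mrpl55, another conserved protein of the large subunit, by -0.157 ± 0.0515 (SE).

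Mrpl2 and Mrpl27, conserved large subunit proteins whose bacterial counterparts lie near the site of peptide bond formation, were the members above the young MPP3 range on every young MPP4 array. Mrpl2 was at 1.38, 1.38, 1.70, 1.65 and 1.53 in young MPP4 and at 1.24, 1.29 and 1.28 in young MPP3. Mrpl27 was at 1.24, 1.28, 1.58, 1.47 and 1.41 in young MPP4 and at 1.07, 1.11 and 1.19 in young MPP3. For both, the young MPP4 arrays of set 2, replicates 3 to 5, were the higher ones. Mrps23 was at 0.686, 1.21, 1.46, 1.47 and 1.46 in young MPP4 and at 0.970, 0.876 and 0.887 in young MPP3, a difference of 0.346 ± 0.184 (SE) that was -0.0246 among the arrays of set 1, where 2 young MPP4 arrays stand against 1 young MPP3 array. With array weights, 10 members passed in this comparison (13.3%), against 9.44% of all genes. The weights of young MPP4 replicates 1 and 2 were then 0.313 and 0.494 and that of young MPP3 replicate 1 was 0.272, the lowest of the 8 arrays.

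In old mice, 36 members were higher and 39 lower in MPP4 than in MPP3, with a median of -0.00410. It was -0.0389 without old MPP3 replicate 3 and 0.0548 without old MPP3 replicate 2. None passed (smallest limma adjusted p = 0.493), and no gene of the 19155 did, while the SAM-type statistic called 142 genes and no member. At an unadjusted p under 0.05 there were 0 members higher and 1 lower (1.33% of 75), against 9.83% of all genes (6.19% higher and 3.64% lower). The groups did not overlap for 3 members (4%; 1 higher and 2 lower), against 16.6% of all genes (9.03% higher and 7.60% lower). The member under 0.05 was Mrps16, a conserved small subunit protein, at 1.79, 1.85 and 1.82 in old MPP4 and at 2.08, 1.86 and 1.99 in old MPP3, a difference of -0.159 ± 0.0599 (SE). Of the 15 conserved small subunit proteins 12 had lower means in old MPP4 and 3 higher ones. Mrps23 was lower without overlap, by -0.246 ± 0.116, and Mrps36 higher, by 0.157 ± 0.0812 (SE). Mrpl54 had a difference of -0.280 ± 0.124, Mrps10 of -0.135 ± 0.0596, Mrps17 of 0.225 ± 0.0993 and Mrpl35 of 0.202 ± 0.0883 (SE). Single arrays moved several of these values. Mrps36 was 0.0888 without old MPP4 replicate 3, Mrps10 -0.0861 and Mrpl35 0.128 without old MPP3 replicate 3.

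Some members varied widely within young MPP4, and those named next were chosen after their values were seen. Mrpl24, a conserved large subunit protein, was at 3.02, 2.87, 2.39, 2.35 and 2.40 in young MPP4, at 2.87, 2.81 and 2.96 in old MPP4, at 2.90, 2.75 and 2.84 in old MPP3 and at 2.97, 2.91 and 2.86 in young MPP3. Mrpl58, a peptidyl-tRNA hydrolase that is part of the large subunit, was at 1.71, 1.63, 1.08, 1.27 and 1.17 in young MPP4, at 1.59, 1.51 and 1.47 in old MPP4, at 1.60, 1.63 and 1.40 in old MPP3 and at 1.65, 1.68 and 1.63 in young MPP3. In both genes the low arrays were young MPP4 replicates 3 to 5, of set 2, whereas young MPP3 replicates 2 and 3, of the same set, stood with the other arrays. Mrps22, a mitochondria-specific small subunit protein, was at 1.5, 2.27, 2.38, 2.38 and 2.43 in young MPP4, and Mrpl32, a conserved large subunit protein, at 0.612, 1.14, 1.48, 1.37 and 1.47. Young MPP4 replicate 1 was the low array of both.

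The divergent pair of Mrpl46 and Mrps11 had age differences of opposite sign. Mrpl46 differed by 0.102 ± 0.0940 in MPP4 and by 0.10 ± 0.0735 in MPP3, and Mrps11 by -0.0992 ± 0.0486 in MPP4 and by -0.0588 ± 0.135 in MPP3 (SE). Mrpl12, a stalk protein that contacts translation factors, differed by -0.155 ± 0.0705 in MPP4 and by -0.203 ± 0.157 in MPP3 (SE). Mrpl45, which helps to hold the ribosome at the inner membrane, differed by 0.0152 ± 0.0811 in MPP4 and by 0.149 ± 0.129 in MPP3 (SE). Mrps5, a conserved small subunit protein, differed by -0.0277 ± 0.112 in MPP4 and by 0.106 ± 0.138 in MPP3, and Mrps30 by 0.0216 ± 0.0700 in MPP4 and by 0.0856 ± 0.0854 in MPP3 (SE). The second probe set of Mrpl47 stood at 0.937, 0.765 and 1.10 in old MPP4 and at 0.506, 0.756, 0.915, 1.07 and 1.29 in young MPP4, where the first had 1.48, 1.51 and 1.52 in old MPP4 and 1.43, 1.49, 1.76, 1.90 and 1.89 in young MPP4. On both probe sets young MPP4 replicate 1 was the lowest young array and replicates 4 and 5 were the highest. The mean of old MPP4 was below that of young MPP4 on the first probe set and slightly above it on the second, with overlap on both.

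Other genes of mitochondrial translation gave no call in either comparison of ages. Among 23 measured ribosome assembly factors, 11 had higher and 12 lower means in old MPP4, and 12 higher and 11 lower means in old MPP3. Mtg2, a GTPase that acts on the large subunit, was at 0.677, 0.562 and 0.675 in old MPP4 and at 0.753, 0.748, 0.908, 0.882 and 1.02 in young MPP4. It was at 0.672, 0.594 and 0.515 in old MPP3 and at 0.816, 0.809 and 0.796 in young MPP3. Old arrays lay below all young ones in both populations, by -0.225 ± 0.0683 in MPP4 (SE; limma adjusted p = 0.403) and by -0.214 ± 0.0453 in MPP3 (SE; limma adjusted p = 0.483). Mtg2 was named for its statistics in these comparisons. Among all genes 7.29% had no overlap in MPP4 and 14.2% in MPP3. The share without overlap in both was not computed, so the values of Mtg2 are not read as a result either. Nsun4, which acts on the ribosomal RNA, differed by -0.0123 ± 0.113 in MPP4 and by -0.419 ± 0.105 in MPP3 (SE). Dhx30, an RNA helicase, differed by -0.0661 ± 0.0208 in MPP4 (SE).

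Of 12 measured translation factors, 6 had higher means in old MPP4 and 4 in old MPP3. Mrrf, the ribosome recycling factor, differed by 0.275 ± 0.134 in MPP4 and by -0.226 ± 0.141 in MPP3 (SE). Mtrf1 differed by -0.223 ± 0.167 in MPP4, and Tsfm, an elongation factor, by -0.149 ± 0.0729 and Metap1d, a methionine aminopeptidase, by -0.195 ± 0.0935 in MPP3 (SE). Tufm, the elongation factor Tu, differed by -0.133 ± 0.120 in MPP4 and by 0.0519 ± 0.0998 in MPP3, and Gfm1, the elongation factor G, by 0.124 ± 0.0975 in MPP4 and by -0.0174 ± 0.0688 in MPP3 (SE). Of 19 aminoacyl-tRNA synthetases and related enzymes, 12 had higher means in old MPP4 and 10 in old MPP3. Yars2, the tyrosyl-tRNA synthetase, differed by 0.250 ± 0.102 in MPP4 and Hars2, the histidyl-tRNA synthetase, by -0.242 ± 0.104 in MPP3 (SE). Vars2 differed by 0.128 ± 0.0479 in MPP4 and Qrsl1 by 0.0716 ± 0.0345 in MPP3 (SE). Among genes that express mitochondrial DNA, 9 of 17 had higher means in old MPP4 and 6 in old MPP3. Lrpprc, which stabilizes mitochondrial mRNA, differed by 0.220 ± 0.0861 in MPP4 and Twnk by -0.225 ± 0.0785 in MPP3 (SE). Hsd17b10, a subunit of mitochondrial RNase P, differed by -0.107 ± 0.0478 in MPP4 and Pnpt1, a ribonuclease, by 0.159 ± 0.0414 in MPP3 (SE). Polrmt, the mitochondrial RNA polymerase, differed by -0.0697 ± 0.0408 in MPP4 and by -0.0601 ± 0.0773 in MPP3, and Tfam, which packages mitochondrial DNA, by 0.0912 ± 0.205 in MPP4 and by 0.208 ± 0.169 in MPP3 (SE). Of 4 measured proteins of the mitochondrial ribosome under other names, 2 had higher means in old MPP4 and 1 in old MPP3, with Ptcd3 at 0.227 ± 0.113 in MPP4 and Chchd1 at -0.130 ± 0.154 in MPP3 (SE). Gadd45gip1 differed by -0.0782 ± 0.0470 in MPP4 and by -0.0957 ± 0.0931 in MPP3 (SE).

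Of 9 transcription regulators, 6 had higher and 3 lower means in old MPP4 (median 0.0287), and 1 a higher and 8 lower means in old MPP3 (median -0.108). Yy1 was at 2.33, 2.28 and 2.25 in old MPP3 and at 2.47, 2.77 and 2.68 in young MPP3, below all young arrays, with a difference of -0.353 ± 0.0841 (SE; limma adjusted p = 0.50). Gabpb1, a subunit of GABP, was at 1.21, 0.912 and 0.856 in old MPP3 and at 0.954, 1.47 and 1.45 in young MPP3. It overlapped through young MPP3 replicate 1, the array of set 1, from which the 3 old arrays differed by 0.0393. Nrf1 was at 1.06, 1.01 and 1.10 in old MPP3 and at 0.916, 1.31 and 1.32 in young MPP3, with the same young array low. Myc differed by 0.0707 ± 0.0959 in MPP4 and by -0.142 ± 0.115 in MPP3 (SE). Ppargc1a, a coactivator of these factors, was at 0.456, 0.491 and 0.348 in old MPP4 and at 0.370, 0.433, 0.120, 0.167 and 0.155 in young MPP4, a difference of 0.182 ± 0.0828 (SE) in which the young arrays of set 1 overlapped the old ones.

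Cytosolic ribosomal protein genes and subunits of oxidative phosphorylation were measured on the same arrays. Of 49 cytosolic ribosomal protein genes, 15 had higher and 34 lower means in old MPP4 (median -0.0665), and 13 higher and 36 lower means in old MPP3 (median -0.0920). Their mean was 4.06 ± 0.0438 in old MPP4 and 4.16 ± 0.0790 in young MPP4, and 4.02 ± 0.0242 in old MPP3 and 4.11 ± 0.0372 in young MPP3 (SD). Of 80 oxidative phosphorylation subunits, 33 had higher and 47 lower means in old MPP4 (median -0.0136), and 33 higher and 47 lower means in old MPP3 (median -0.0251). The mitochondrial ribosomal protein genes, with 35 and 34 of 75 higher in old MPP4 and old MPP3, had medians of -0.0263 and -0.0195, whose signs turned under the settings given above. A difference between these groups of genes was not tested.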

How the data were processed

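RNA of 20000 sorted cells per array was amplified with a linear kit and hybridized. The authors processed the arrays by RMA and then by quantile normalization to a standard exponential reference, and the deposited values, a score of rank, were used as given: 92.3% of them were whole ranks of 25307 probe sets within 0.01. Probe sets were named from a platform table, which listed 19980 of 22115; 744 with several symbols were left out, and the probe set with the highest mean was kept for a gene with several. Groups were compared with limma 3.58.1 in R 4.3.3 on the arrays of each comparison, with Benjamini-Hochberg adjustment over 19155 genes at 0.05. A SAM-type statistic with the same threshold was an alternative. It is a version of the SAM scores that the study used to choose genes for pathway analysis. The number of arrays limits the precision. Scripts were tested on simulated data. Figures were drawn with Python 3.11.15 and matplotlib 3.10.9.

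Members and gene lists were chosen with earlier results of these data known. Named members were the 3 highest and 3 lowest limma statistics in each comparison of groups, the 3 highest and 3 lowest means in each subunit, those with several probe sets, and a set of members with known roles or paralogs; from other lists, the 2 strongest statistics in each age comparison and 6 regulators and factors. Other members without overlap were named after their values were seen. Alternatives covered the test, array weights, the filter on dim genes, the probe set, scaling, the replicate block, array set, Xist and each array left out. Analyses without Mrps36, without the 4 members with a doubtful probe set number, and of class means without single arrays or Mrps23, were added after seeing the data.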

Additional observations from a re-analysis of the deposited data

Results flagged for a closer look

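In young MPP4, replicate 1 had a mean over the 75 members of 1.53, and the nearest of the other 4 arrays had 1.60. The gap divided by the range of the group was 0.714, just above Dixon's critical value of 0.71 for 5 arrays. The same ratio was above that value for 5 of the 75 members taken one by one, and chance flags about 1 in 20 groups. Young MPP4 replicate 1 was also 1 of the 4 young arrays with Xist above 1, and the part of this in its low mean was not tested.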

How the results depend on the processing

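Of 803 values of the 48 single-gene results under alternatives, 791 kept their direction and their side of the threshold, 8 passed it in addition and 4 turned. None of the 48 had passed in the main fit, so none could lose it. They were chosen by their statistics in these same data, so a kept direction is no independent support for them. In set 1 alone, which holds 1 young MPP3 and 2 young MPP4 arrays, Gabpb1 in MPP3 was 0.0393, Mtrf1 in MPP4 0.0314 and Mrps23 in young MPP4 against MPP3 -0.0246, and Chchd1 in MPP3 ranged from -0.275 to 0.0177 with 1 array left out. In MPP3, 9 genes passed with 1 fit of 4 groups, 1 of them a member (Mrpl28), and 1 gene passed in set 1 alone. In MPP4, 21 genes passed by the SAM-type statistic, 304 with array weights, 1 of them a member (Mrps27), and 1 with 1 fit. In young MPP4 against MPP3, where 25 passed, the SAM-type statistic gave 210, a variance trend 48, array weights 1808 with 10 members, leaving out the dimmest genes 59, normal scores 51, and the replicate block, set 1 alone and no arrays with Xist 0 each. In old MPP4 against MPP3, the SAM-type statistic gave 142, 1 fit 27, leaving out the dimmest genes 1 and normal scores 2. The difference between the age differences gave 2 with a variance trend and 574 with array weights (3% of all genes), 4 of them members (5.33% of 75). With 1 array left out, the genes that passed were 0 in MPP3, 0 to 15 in MPP4 (15 without young MPP4 replicate 2), 8 to 108 in young MPP4 against MPP3 (8 without young MPP3 replicate 2 and 108 without replicate 1), 0 to 3 in old and 0 to 10 for the difference, and no member passed. The median of members then ran from -0.0789 to 0.00211 in MPP3, from -0.0594 to 0.00640 in MPP4, from -0.0435 to 0.000303 in young and from -0.0389 to 0.0548 in old MPP4 against MPP3, and from -0.0213 to 0.0988 for the difference, so its sign turned in each. Arrays with the same replicate number did not go together throughout (correlations of deviations from -0.192 to 0.407). The highest value was that of replicate 1 of young MPP4 and young MPP3, where Xist was 3.49 and 3.52. Whether such arrays came from the same mice is not given by the labels and was not tested. The replicate block keeps only replicate numbers that both groups have, so it left out young MPP4 replicates 4 and 5. With the same replicate numbers left in both groups, the block itself does not change a difference. The median of members in MPP4 was then 0.0231, and no member passed. The cause of the other shifts was not tested, and 3 to 5 arrays a group limit what could pass.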
